A study of Mus musculus with 36 samples.

Results

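Constant distal H3K27ac regions without H3K9ac are stretches of the mouse hippocampal genome where acetylation of histone H3 at lysine 27 (H3K27ac) was called in every condition of the study, away from protein-coding gene ends and with no peak of acetylation at lysine 9 (H3K9ac). They were chosen by peak presence: H3K27ac peaks of 4 lists that overlapped or touched were merged, and a merged region was kept when all 4 lists held a peak in it, when it was under 2.5 kb wide, when it overlapped no peak of the 4 H3K9ac lists, and when it lay over 5.0 kb from both ends of every protein-coding gene. Of 149468 merged H3K27ac regions, 40548 (27.1%) were in all 4 lists. Under the width limit were 38053, of which 12622 overlapped no H3K9ac peak, and 10237 of these were also distal. The 10237 regions were 6.85% of all merged regions and 25.3% of those in all 4 lists, and together spanned 7.96 Mb of the GRCm38 (mm10) genome.

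The study profiled chromatin of the dorsal hippocampus of male mice aged to 8 weeks by chromatin immunoprecipitation and sequencing (ChIP-seq) for H3K27ac and H3K9ac. Mice of the ACSS2 KD EtOH and ACSS2 KD Untreated groups carried an AAV2/9 vector, U6.shACSS2.CMV.EGFP, injected into the dorsal hippocampus, which makes a short hairpin RNA against Acss2, and mice of the Control EtOH and Control Untreated groups carried a control vector. EtOH groups had received ethanol by intraperitoneal injection at 2 g/kg as a 20% solution in saline, and Untreated groups none. All groups therefore share sex, age and tissue. The 36 samples (24 ChIP, 12 input) form 12 groups of 3, and each ChIP group is represented by 1 deposited peak list that its 3 replicates share, so no spread between mice can be attached to any value and no test between conditions was possible. The U6 promoter is active in any transduced cell and the tissue is bulk, so a list mixes transduced and other cells of all types, and fewer cells of a type cannot be told apart from less acetylation per cell. As a check of the tissue, 10 of 10 defining genes of hippocampal excitatory neurons, such as Neurod6 and Camk2a, had an H3K27ac peak at a gene end in all 4 lists, and none of 6 defining genes of other tissues, such as Alb and Myh6, had 1 in any list.

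The read depth behind the lists is unknown, and the lists differed in length. Those of H3K27ac held 119317 peaks over 57.4 Mb in ACSS2 KD EtOH, 101690 over 47.8 Mb in ACSS2 KD Untreated, 86110 over 38.1 Mb in Control EtOH and 89935 over 40.1 Mb in Control Untreated. The H3K9ac lists, used to exclude regions, held 42120, 38484, 31042 and 38235 peaks in the same order of groups. A region without H3K9ac is thus a region without an H3K9ac peak at the authors' threshold, a false discovery rate of 0.001, and not a region shown to lack the mark.

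H3K27ac is placed mainly by the acetyltransferases p300 and CBP, and it marks active enhancers, the distal sequences that raise transcription of a gene from afar, as well as active promoters. H3K9ac is placed mainly by GCN5 and PCAF, and it is concentrated at active promoters. Both need acetyl-CoA, which ACSS2 makes from acetate, a product of ethanol oxidation. The study's groups address whether ethanol and ACSS2 alter these marks in the brain.

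Annotated gene starts were fewer in these regions than in constant distal regions with H3K9ac, and held fewer CpG, the dinucleotide that is dense in most promoters of widely used genes. RefSeq promoter windows (GRCm38.p6, 250 bases before to 50 after each annotated start, protein-coding and long noncoding RNA genes) were matched by the position of the start. Of 9828 regions on the chromosomes of that table, 144 (1.47%, 95% Wilson interval 1.25% to 1.72%) held a start. Of 8253 constant distal regions with H3K9ac, which met the same rule except that they overlapped an H3K9ac peak, 915 (11.1%, 10.4% to 11.8%) did. Of the distal regions without H3K9ac that were in 1 to 3 lists, 0.405% (0.362% to 0.453%) did, so the share was lower still in that set. Median widths were 679 bp for the regions, 905 bp for those with H3K9ac and 217 bp for those in 1 to 3 lists. A wider region holds a start more easily, and the part of width in these shares was not tested. The 144 regions held 164 windows of 140 genes, 131 windows of long noncoding RNAs and 33 of protein-coding genes, all internal starts over 5.0 kb from both gene ends. Intervals here and below cover counting error only.

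Printed here are 300 bases around starts of the 3 long noncoding RNAs and the 3 protein-coding genes whose windows lay wholly inside the regions with the highest peak ranks, 5′ to 3′ along the gene, with CpG in capitals, so that the CpG content can be compared by eye.
Gm30456: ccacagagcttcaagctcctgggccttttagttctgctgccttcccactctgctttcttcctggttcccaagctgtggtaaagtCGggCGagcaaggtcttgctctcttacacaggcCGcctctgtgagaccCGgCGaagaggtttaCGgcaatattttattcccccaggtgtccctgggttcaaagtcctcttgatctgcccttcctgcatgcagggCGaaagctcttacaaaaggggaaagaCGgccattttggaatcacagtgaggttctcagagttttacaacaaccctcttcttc
Gm42056: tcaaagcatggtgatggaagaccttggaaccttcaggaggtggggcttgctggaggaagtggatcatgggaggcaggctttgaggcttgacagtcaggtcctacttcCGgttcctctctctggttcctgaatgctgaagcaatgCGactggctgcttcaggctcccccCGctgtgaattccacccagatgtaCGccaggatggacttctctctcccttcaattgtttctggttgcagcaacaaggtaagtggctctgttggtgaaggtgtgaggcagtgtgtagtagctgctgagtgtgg
Gm4544: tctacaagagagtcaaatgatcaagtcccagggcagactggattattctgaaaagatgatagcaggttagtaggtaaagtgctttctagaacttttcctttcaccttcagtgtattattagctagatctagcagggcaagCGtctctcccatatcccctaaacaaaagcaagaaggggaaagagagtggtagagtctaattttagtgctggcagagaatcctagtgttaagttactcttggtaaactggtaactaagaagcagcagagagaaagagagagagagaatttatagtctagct
Lims1: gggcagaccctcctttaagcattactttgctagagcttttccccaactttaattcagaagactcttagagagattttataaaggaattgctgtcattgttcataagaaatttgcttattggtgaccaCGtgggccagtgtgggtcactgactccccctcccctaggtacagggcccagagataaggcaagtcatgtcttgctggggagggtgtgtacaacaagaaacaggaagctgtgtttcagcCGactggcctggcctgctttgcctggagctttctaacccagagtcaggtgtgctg
6430548M08Rik: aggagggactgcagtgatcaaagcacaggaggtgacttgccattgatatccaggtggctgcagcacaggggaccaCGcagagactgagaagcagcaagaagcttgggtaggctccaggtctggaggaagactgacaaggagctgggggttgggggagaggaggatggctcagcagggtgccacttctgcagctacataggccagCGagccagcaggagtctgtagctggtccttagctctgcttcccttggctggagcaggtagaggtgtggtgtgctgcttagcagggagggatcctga
Kcnab2: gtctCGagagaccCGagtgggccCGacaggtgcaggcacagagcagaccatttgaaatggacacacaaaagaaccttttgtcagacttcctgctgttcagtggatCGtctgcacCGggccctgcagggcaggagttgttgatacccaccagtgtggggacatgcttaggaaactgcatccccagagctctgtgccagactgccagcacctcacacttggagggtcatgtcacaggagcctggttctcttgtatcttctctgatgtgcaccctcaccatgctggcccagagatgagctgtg
For comparison, the same choice among constant distal regions with H3K9ac gave a long noncoding RNA, B930059L03Rik, and a protein-coding zinc finger gene, Zfp119b.
B930059L03Rik: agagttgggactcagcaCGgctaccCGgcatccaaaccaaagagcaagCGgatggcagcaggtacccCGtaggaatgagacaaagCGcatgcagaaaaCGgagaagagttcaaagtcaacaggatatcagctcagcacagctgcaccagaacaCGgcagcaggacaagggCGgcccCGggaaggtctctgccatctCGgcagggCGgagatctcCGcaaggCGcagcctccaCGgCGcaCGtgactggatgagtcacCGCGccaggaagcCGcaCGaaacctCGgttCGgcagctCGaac
Zfp119b: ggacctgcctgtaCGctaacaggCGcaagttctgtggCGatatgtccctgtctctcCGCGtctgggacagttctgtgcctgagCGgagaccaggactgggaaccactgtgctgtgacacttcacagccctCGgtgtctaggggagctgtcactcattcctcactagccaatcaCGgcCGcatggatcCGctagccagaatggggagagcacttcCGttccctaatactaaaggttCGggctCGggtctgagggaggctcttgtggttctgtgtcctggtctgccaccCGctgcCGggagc

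In these sequences Gm30456 (chr10:126935150-126935449, minus strand) has 8 CpG, Gm42056 (chr8:125960188-125960487, plus strand) 4 and Gm4544 (chr15:102657222-102657521, plus strand) 1. Lims1 (chr10:58371204-58371503, plus strand), a LIM-domain adaptor of focal adhesions, has 2, 6430548M08Rik (chr8:120144679-120144978, plus strand) 2, and Kcnab2 (chr4:152452896-152453195, minus strand), a beta subunit of voltage-gated potassium channels, 5. The windows from regions with H3K9ac have 23 CpG at B930059L03Rik (chr12:110591124-110591423, plus strand) and 15 at Zfp119b (chr17:55945210-55945509, minus strand). All 8 coordinates are of the GRCm38.p6 assembly.

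The whole sets of windows differed in the same direction as these examples. The median was 4 CpG (quartiles 3 and 7) in the 164 windows of regions without H3K9ac and 13 (7 and 23) in the 1101 windows of constant distal regions with H3K9ac. The gap was present within both gene types, since long noncoding RNA windows had medians of 4 and 10 and protein-coding windows 4 and 16 in those 2 sets. Windows of distal regions without H3K9ac in 1 to 3 lists had a median of 5, so a low CpG count was shared by both sets without H3K9ac. All 32851 windows of the table had a median of 7 CpG, made up of 13 for protein-coding and 4 for long noncoding RNA genes. The long noncoding RNA windows of the regions, 131 of their 164, thus had the same median as all windows of that type, and the protein-coding windows had a lower one. The letters GGGCGG, the GC-box of SP-family factors, stood on either strand in 14.0% of windows of regions without H3K9ac, in 50.8% with H3K9ac and in 35.7% of all windows. It stood in 17.1% of windows of distal regions in 1 to 3 lists and in 16.3% of all long noncoding RNA windows. CAGATG, an E-box letter order bound by NEUROD factors, stood in 27.4% without H3K9ac, 14.7% with it and 17.2% of all windows, and in 20.9% for distal regions in 1 to 3 lists and 21.8% of all long noncoding RNA windows. TGANTCA, the AP-1 letters, stood in 9.76% without H3K9ac, 7.36% with it and 7.81% of all windows. It stood in 10.3% for distal regions in 1 to 3 lists and 9.31% of all long noncoding RNA windows. In the same order of 5 sets, TGACGTCA, the full CRE, stood in 3.66%, 1.73%, 1.79%, 0.623% and 0.975%. ACAATGG, read by SOX factors, stood in 5.49%, 2.54%, 3.66%, 3.12% and 5.03%. Such low shares of 164 windows rest on few windows, and no interval was attached to them. None of these letter sets contains another, a match is no proof of binding, and the windows describe only the few regions at annotated starts.

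**Figure D1:**
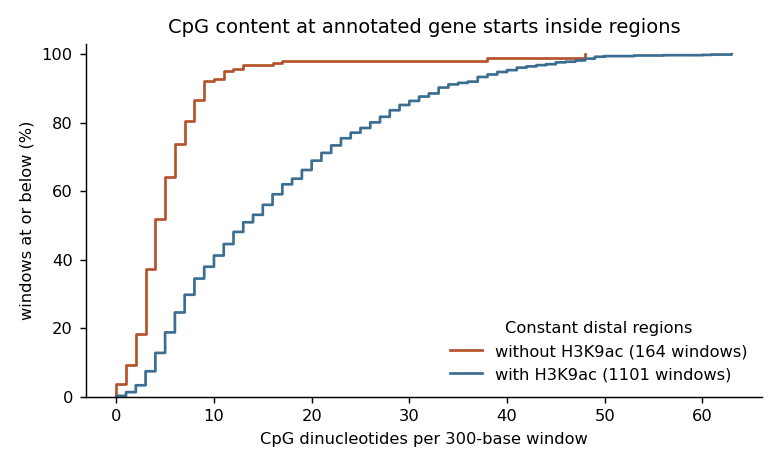
Cumulative share of RefSeq promoter windows (y axis, percent) by number of CpG dinucleotides per window of 300 bases (x axis), for windows whose start lies in a constant distal H3K27ac region without H3K9ac (164 windows) or with H3K9ac (1101 windows). The curve of regions without H3K9ac lies to the left, with medians of 4 and 13 CpG.

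The regions were narrow, and H3K27ac covered only part of each. Their median width was 679 bp (quartiles 490 and 958, range 173 to 2486), against 905 bp for constant distal regions with H3K9ac. Peaks covered a median of 501 bp of a region in ACSS2 KD EtOH, 432 bp in ACSS2 KD Untreated, 315 bp in Control EtOH and 349 bp in Control Untreated. In constant distal regions with H3K9ac these medians were 746, 658, 547 and 574 bp. Coverage was therefore lower without H3K9ac in each list, and within both sets it was highest in the longest list and lowest in the shortest. In 4932 regions (48.2%) the ACSS2 KD EtOH peaks covered most bases, in 2707 (26.4%) those of ACSS2 KD Untreated, in 1171 (11.4%) those of Control EtOH and in 1391 (13.6%) those of Control Untreated, with 36 ties.

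**Figure D2:**
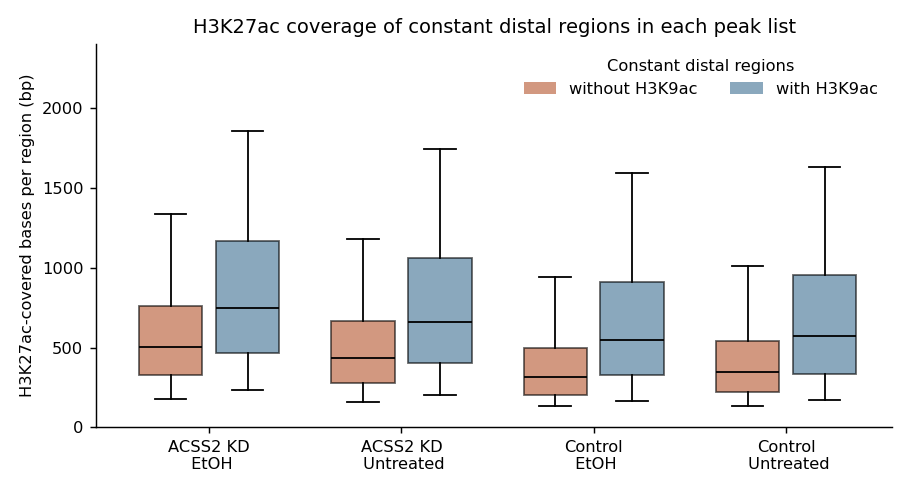
Bases covered by H3K27ac peaks per region (y axis, bp) in each of the 4 lists, for constant distal regions without H3K9ac (10237) and with H3K9ac (8611). Boxes give the quartiles and the median and whiskers the 5th and 95th percentile over regions, with medians of 501, 432, 315 and 349 bp without H3K9ac, below the 746, 658, 547 and 574 bp with it.

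Presence in all 4 lists did not mean the same bases. The stretch covered by all 4 lists at once had a median of 136 bp, or 21.7% of the region's width, and in 1742 regions (17.0%) no base was covered in all 4. In constant distal regions with H3K9ac the shared stretch had a median of 326 bp (42.2% of the width), and 458 (5.32%) had none. Each list covered at least 50% of the width in 2592 regions without H3K9ac (25.3%) and in 4930 with it (57.3%). Between 2 lists, the ethanol pair of the control mice agreed least: in 720 regions (7.03%) the peaks of Control EtOH and Control Untreated shared no base, whereas 175 (1.71%) had none shared by ACSS2 KD EtOH and ACSS2 KD Untreated. The knockdown pairs lay between, with 432 regions (4.22%) for ACSS2 KD Untreated and Control Untreated and 250 (2.44%) for ACSS2 KD EtOH and Control EtOH. Constant distal regions with H3K9ac had the same order of pairs. There, 2.14% had no base shared by Control EtOH and Control Untreated, and 0.348% none shared by the 2 knockdown lists. ACSS2 KD Untreated and Control Untreated stood at 1.31%, and ACSS2 KD EtOH and Control EtOH at 0.557%. A list with more covered bases shares bases more easily, and its part in these counts was not tested.

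The highest peaks of the regions ranked near or above the middle of their lists. The score deposited with each peak was taken to be a −log10 q-value, and since scores grow with depth, each was ranked within its own list. The highest peak of a region had a median percentile of 66.0 in ACSS2 KD EtOH, 57.1 in ACSS2 KD Untreated, 51.1 in Control EtOH and 54.7 in Control Untreated, against 79.8, 74.9, 69.0 and 70.8 in constant distal regions with H3K9ac. In 2140 to 2601 regions per list several peaks were present and the highest was taken, so percentile 50 is not a neutral value. Percentile 50 was passed in all 4 lists by 2184 regions (21.3%), and percentile 75 by 154 (1.5%). At the other end, 4532 (44.3%) fell under percentile 25 in at least 1 list. These counts were not made for other sets, so nothing particular to the regions is read from them.

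The highest-ranked region, by its lowest percentile over the 4 lists, lay outside protein-coding genes, 32.3 kb from an end of Atp23, a mitochondrial metallopeptidase gene, at chr10:126934331-126936060. Peaks covered 1549 bp of it in ACSS2 KD EtOH, 1522 bp in ACSS2 KD Untreated, 1304 bp in Control EtOH and 1411 bp in Control Untreated, and its percentiles ran from 86.6 to 92.2. The start of Gm30456 printed above lies in it, and the nearest H3K9ac peak was 0.15 kb away, just outside. Next was a region inside Slc43a2 (chr11:75539916-75541900), which encodes a neutral amino acid transporter, with 1788, 1349, 1356 and 1589 covered bp in the same order of lists. The third, inside the DNA repair gene Rad51b (chr12:79510968-79512830), had 1740, 1740, 1337 and 1857 bp. It differed from the others in its distance from H3K9ac, with the nearest peak 100 kb away.

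Of the other regions among the 10 highest, 2 lay inside Arhgef10, a guanine nucleotide exchange factor gene (chr8:14992658-14994014), and inside Ccdc13 (chr9:121822360-121824364), and 5 lay outside genes. The nearest genes of these 5 were Coro2b, an actin-binding coronin (chr9:62553573-62555632), Slc4a8, a bicarbonate transporter (chr15:100831654-100832375), Septin9, a septin of the cytoskeleton (chr11:117483187-117484079), the small GTPase gene Rhob (chr12:8453324-8454925) and Ttc7b (chr12:100263778-100265842). Coverage in these 7 ran from 472 bp, near Slc4a8 in Control EtOH, to 2060 bp, near Coro2b in ACSS2 KD EtOH. Their lowest percentiles were between 83.3 and 84.9, so the ranks of these strongest regions were close together. Control EtOH covered fewest bases in 5 of the 7, the exceptions being those inside Arhgef10 and Ccdc13.

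Most regions were intragenic. The midpoint of 7300 (71.3%, 70.4% to 72.2%) lay inside a protein-coding gene, although only 36.2% of the genome over 5.0 kb from gene ends is inside genes. The share was 66.0% (65.0% to 67.0%) among constant distal regions with H3K9ac and 72.8% (72.5% to 73.1%) among the 77089 distal regions without H3K9ac that were in 1 to 3 lists. The median distance to a gene end was 31.4 kb (30.5 to 32.3 kb), against 24.1 kb (23.3 to 24.9 kb) and 32.1 kb (31.8 to 32.5 kb) in those 2 sets. In distance, the intervals of the regions in all 4 lists and of those in 1 to 3 lists overlapped. Over 100 kb from any gene end were 1587 regions (15.5%), the farthest 1327 kb away.

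H3K9ac was often close by. The nearest H3K9ac peak of any list was a median of 6.5 kb away, against 10.8 kb for the distal regions in 1 to 3 lists, and 1984 regions (19.4%, against 12.3%) had 1 within 1.0 kb. A further 455 regions were over 100 kb from any H3K9ac peak. Ends of genes of other types, mostly noncoding, lay within 5.0 kb of 1927 regions (18.8%), against 28.5% of constant distal regions with H3K9ac.

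The regions fell unevenly on the chromosomes. On the 19 autosomes they made up 21.4% (chromosome 19) to 35.3% (chromosome 12, 644 of 1822) of the regions in all 4 lists. On chromosome X they were 15 of 632 (2.37%, 1.44% to 3.88%). Chromosome X also had few H3K27ac regions of any kind, 1353, of which 46.7% were in all 4 lists, against 24.2% to 28.2% on autosomes. Among distal regions without H3K9ac, those in all 4 lists were 4.75% on chromosome X and 10.6% to 13.7% on autosomes, whereas 128 constant distal regions with H3K9ac lay on X. The mice are male and carry 1 copy of X, whose part in these shares was not tested.

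A small number of long genes held many regions. Of 21887 protein-coding genes, 2173 held at least 1, 938 of them exactly 1, and the 160 genes with 10 or more held 2421 regions, or 33.2% of those inside genes. Genes with a region had a median length of 87.8 kb, against 17.2 kb for all genes. Over the 13954 genes above 10 kb, Spearman's rank correlation between count and length was 0.358, a description across genes, which are not independent. Of these genes 11781 held no region and are tied, which limits the correlation, so it does not measure how closely the count follows length.

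Msra, the gene of the methionine sulfoxide reductase A that repairs oxidised proteins, held 45 regions in 333 kb. Their summed coverage was 29737 bp in ACSS2 KD EtOH, 24961 bp in ACSS2 KD Untreated, 17196 bp in Control EtOH and 22833 bp in Control Untreated. Msra had H3K27ac at a gene end in all 4 lists and H3K9ac there in none. Dscaml1, a neuronal adhesion molecule of the immunoglobulin superfamily, also held 45, with 30038, 29102, 21744 and 24877 bp in the same order of lists, and had end H3K9ac in 1 list. These 2 genes at the top were the ones of the 10 without H3K9ac at an end in all 4 lists.

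The next were Slc24a2, a sodium-calcium-potassium exchanger of neurons, with 36 regions, and Gse1, a coiled-coil protein gene, with 34. Kalrn, a guanine nucleotide exchange factor of dendritic spines, and Ctif, a translation initiation factor of the nuclear cap-binding complex, held 33 each. Ctif departed from the other 9 in coverage: its sums were 19665 bp in ACSS2 KD EtOH, 17658 bp in ACSS2 KD Untreated, 19926 bp in Control EtOH and 16577 bp in Control Untreated, so that Control EtOH was the highest list there. Sipa1l3, of a family of Rap GTPase-activating proteins, held 32 in 199 kb, the densest of the 10 at 16.1 per 100 kb, with 24868, 21275, 12896 and 16243 bp. The RNA-binding protein gene Snd1 held 29, the basic helix-loop-helix factor gene Tcf4 28 and Ttc7b, a scaffold of the phosphatidylinositol 4-kinase complex, 27.

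Outside genes, 2937 regions were nearest to 1346 genes. Klf13, a zinc finger transcription factor, was nearest to 20, Ppp1r26, a regulator of protein phosphatase 1, and Enc1, an actin-binding kelch protein, to 16 each, and Rhob and Tbx19 to 14 each. Coverage near Klf13 summed to 10756 bp in ACSS2 KD EtOH, 11452 bp in ACSS2 KD Untreated, 9946 bp in Control EtOH and 8075 bp in Control Untreated. Tbx19, a T-box factor known from pituitary corticotrophs, was the exception among the 5, with no end peak of either mark in any list. Nearest here is by distance alone and does not show which gene a region acts on.

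**Figure D3:**
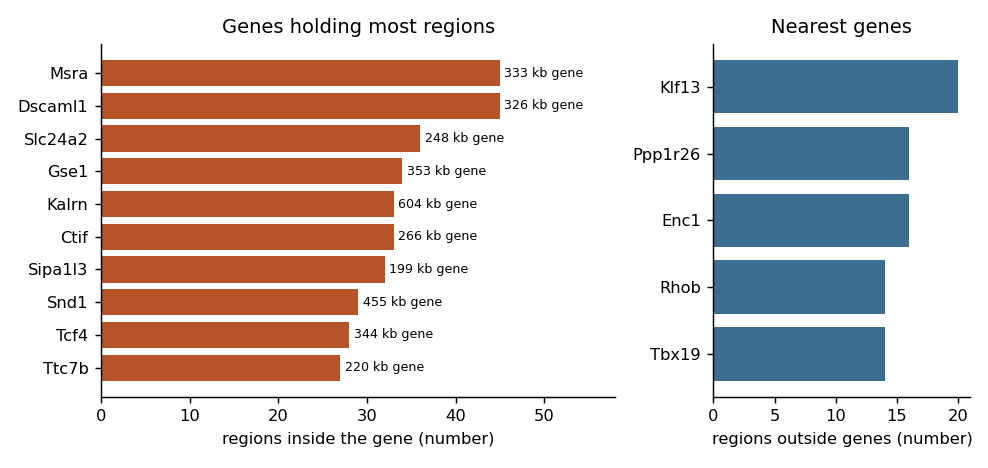
Number of constant distal H3K27ac regions without H3K9ac (x axis) inside the 10 protein-coding genes that hold most, with the gene length in kb beside each bar (left), and outside genes by nearest gene for the 5 with most (right). Msra and Dscaml1 hold 45 each and Klf13 is nearest to 20.

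Genes that held such regions carried H3K9ac at their ends more often than other genes of the same length. Among genes above 10 kb, 79.7% (78.0% to 81.3%) of the 2173 that held a region had an H3K9ac end peak in all 4 lists, against 59.9% (59.0% to 60.8%) of the 11781 that held none. By length the shares were 78.8% and 59.6% in genes of 10 to 50 kb, 80.8% and 61.6% at 50 to 100 kb, 79.1% and 59.3% at 100 to 200 kb, and 80.4% and 59.3% above 200 kb. The gap was therefore present in each length class. With 1 region inside, the share was 77.3%, with 2 to 4 it was 80.6%, with 5 to 9 it was 83.4% and with 10 or more 82.5%. End H3K27ac in all 4 lists was likewise more frequent, at 85.8% with a region and 65.6% without.

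**Figure D4:**
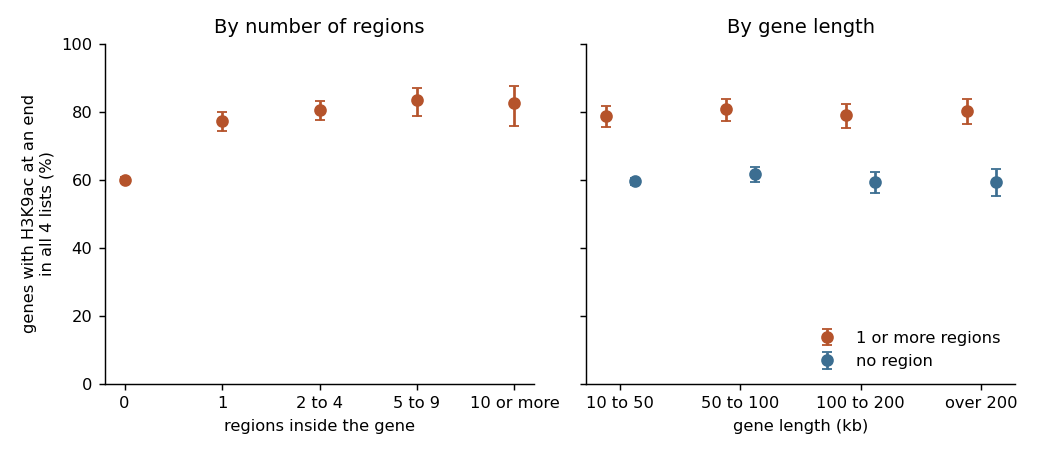
Share of protein-coding genes over 10 kb with an H3K9ac peak within 1 kb of a gene end in all 4 lists (y axis, percent) by number of constant distal H3K27ac regions without H3K9ac inside the gene (left) and by gene length in kb, for genes with 1 or more such regions or none (right). Bars are 95% Wilson intervals, and genes with a region lie at 77.3% to 83.4% on the left, above the 59.9% of genes with none.

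End H3K9ac was then followed between the ethanol and untreated lists, as counts with no test of a difference. Of all 12726 protein-coding genes with an H3K9ac end peak in Control Untreated, 6.2% had none in Control EtOH. Among genes above 10 kb it was 75 of 1816 (4.13%) of those holding a region and 470 of 7638 (6.15%) of those holding none. The values were 5.64% and 5.54% at 10 to 50 kb, 3.66% and 6.55% at 50 to 100 kb, 3.01% and 8.17% at 100 to 200 kb and 3.89% and 10.3% above 200 kb, so the values were nearly equal in the shortest class and lower with a region in the 3 longer ones. By number of regions inside the shares had no order, at 4.83% with 1, 3.25% with 2 to 4, 4.87% with 5 to 9 and 2.92% with 10 or more. For ACSS2 KD EtOH against ACSS2 KD Untreated, 1.99% of all 12591 genes had no end peak in the ethanol list, and it was 26 of 1804 (1.44%) with a region and 157 of 7575 (2.07%) without. Each of these counts compares 1 list with another and has no replicate check. The H3K9ac list of Control EtOH was shorter than that of Control Untreated (31042 and 38235 peaks). That of ACSS2 KD EtOH was longer than that of ACSS2 KD Untreated (42120 and 38484 peaks). A shorter list lacks an end peak more easily, and the part of list length in these shares was not tested.

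Gene lists drawn up for the tissue and treatment showed where the regions lie by function. A gene was counted when it held a region or was the nearest gene to 1 outside genes, as 3127 of 21887 (14.3%) were. Since long genes are counted more readily (3.68% up to 10 kb, 11.8% at 10 to 50 kb, 28.4% at 50 to 100 kb, 41.5% at 100 to 200 kb and 46.6% above 200 kb), each list is set beside its median gene length. Genes within a list differ in length, so the class of its median length is not a matched background. No list was tested.

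Of markers of hippocampal excitatory neurons, with a median length of 19.8 kb, 9 of 20 (45.0%) had a region. They were led by Zbtb20, a transcription factor that specifies CA1 pyramidal neurons, with 20 regions, Prox1, the identity factor of dentate granule cells, with 14, Bcl11b, a zinc finger factor of CA1 and dentate neurons, with 13, and Fibcd1 with 4. The top region in Zbtb20 (chr16:43576437-43578187) had 1751 covered bp in ACSS2 KD EtOH, 1534 bp in ACSS2 KD Untreated, 815 bp in Control EtOH and 798 bp in Control Untreated. That of Prox1 (chr1:190279216-190281521), 108 kb from the gene, had 2182, 1293, 1451 and 1504 bp in the same order, and the nearest H3K9ac peak was 104 kb away. Of inhibitory neuron markers 2 of 20 had a region, Dlx2 with 2 and Prox1, which is on both lists.

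Among glia, astrocyte markers reached 9 of 20 at a median length of 36.1 kb, led by Nfia with 16 and Nfib with 10, nuclear factor I genes of gliogenesis, then the glutamine synthetase gene Glul with 3 and the glutamate transporter gene Slc1a3 with 2. Oligodendrocyte lineage genes reached 8 of 20 at 17.7 kb, with the myelin basic protein gene Mbp at 12, Zfp536 at 8, the lineage factor Sox10 at 4 and the myelin regulator Myrf at 3. Both lists lay above the 11.8% of genes of 10 to 50 kb, the class of their median length. Some of their leading genes were far longer, such as Nfia (541 kb) and Zfp536 (456 kb), and 46.6% of genes above 200 kb had a region. Others were short, such as Glul (9.8 kb) and Sox10 (9.58 kb). The top region of Sox10 (chr15:79191954-79193217), 27.5 kb away, had 897 bp in ACSS2 KD EtOH, 885 bp in ACSS2 KD Untreated, 1220 bp in Control EtOH and 1014 bp in Control Untreated. In the same order of lists, that in Mbp (chr18:82536306-82538165) had 1504, 1738, 1821 and 1575 bp, that in Myrf (chr19:10234424-10235085) 508, 525, 200 and 325 bp, and that in Zfp536 (chr7:37627015-37627649) 459, 632, 545 and 414 bp. The 4 did not share a pattern: the region of Sox10 had fewer covered bases in both knockdown lists than in both control lists, that in Myrf had more, and those in Mbp and Zfp536 overlapped. Microglia and macrophage genes reached 4 of 20, with 5 regions in all, among them 1 in the fractalkine receptor gene Cx3cr1, and endothelial and mural genes 3 of 20, with 4 regions.

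Synaptic and channel genes, most of them long, held many regions. Of glutamate receptor and postsynaptic scaffold genes, with a median length of 348 kb, 17 of 30 (56.7%) had a region, 127 in all. The NMDA receptor subunit genes Grin2a and Grin2b had 23 and 22, the scaffold gene Dlgap1 18 and the AMPA receptor gene Gria1 15. Voltage-gated ion channel genes reached 15 of 26 (57.7%) at 301 kb, led by the calcium channel gene Cacna1c with 15, the potassium channel genes Kcnq3 with 11 and Kcnd3 with 7, and the sodium channel gene Scn8a with 7. Synaptic vesicle release genes reached 12 of 29 (41.4%) at 94.4 kb, where the calcium sensor gene Syt7 had 10, the active zone scaffold gene Bsn 9, the complexin gene Cplx2 6 and Syt1 3. The top region of Grin2a (chr16:10062818-10064878), 66.7 kb outside the gene, had 1681 bp in ACSS2 KD EtOH, 1786 bp in ACSS2 KD Untreated, 783 bp in Control EtOH and 1604 bp in Control Untreated, so the Control EtOH list stood apart there.

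Immediate early genes, switched on by neuronal activity, are short, with a median of 6.38 kb, and 6 of 24 (25.0%) had a region, against 3.68% of genes up to 10 kb. Npas4 and Jun had 3 each, Fos 2 and Arc 1. The region of Arc (chr15:74678170-74680169) lay 5.6 kb from the gene, close to the limit of the rule, and had 1664 bp in ACSS2 KD EtOH, 1207 bp in ACSS2 KD Untreated, 1248 bp in Control EtOH and 895 bp in Control Untreated. It passed percentile 77.8 in each list, well above most regions. The top region of Fos (chr12:85523416-85523877), 46.1 kb away, had 209, 456, 370 and 325 bp and a lowest percentile of 22.2.

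Glucocorticoid and stress response genes reached 6 of 20 (30.0%), with 26 of their 38 regions in Zbtb16, a zinc finger factor gene induced by glucocorticoids, 4 near the kinase gene Sgk1, 2 in Fkbp5 and 2 near Cdkn1a. The top region of Zbtb16 (chr9:48743708-48745308) had 1548 bp in ACSS2 KD EtOH, 1581 bp in ACSS2 KD Untreated, 1356 bp in Control EtOH and 1319 bp in Control Untreated. Ethanol and acetate metabolism genes reached 3 of 20 (15.0%), with 3 regions in Aldh2, the mitochondrial enzyme that oxidises acetaldehyde, and 1 each in Acss1, the mitochondrial acetyl-CoA synthetase, and Aldh7a1. Acss2 had none. The region in Acss1 (chr2:150647905-150648753) had 527, 464, 647 and 241 bp in the same order of lists, and no base covered in all 4.

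Writers, erasers and readers of histone acetylation reached 7 of 24 (29.2%), with 5 regions in Hdac5 and 3 each for Hdac4 and Ncoa1. Their median length was 49.5 kb. Housekeeping genes reached 2 of 20 and genes of other tissues, with a median of 6.53 kb, 0 of 24.

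**Figure D5:**
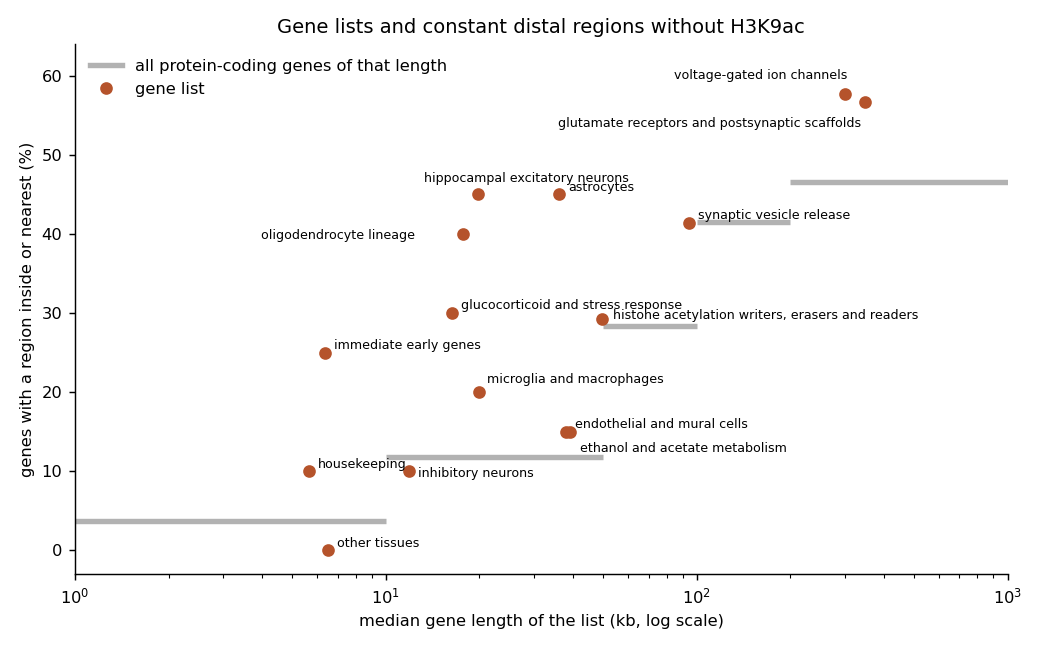
Share of the genes of each list with a constant distal H3K27ac region without H3K9ac inside or nearest (y axis, percent) against the list's median gene length (x axis, kb, log scale), 1 point per list. Grey lines give the share among all protein-coding genes of each length class, 3.68% to 46.6%. The excitatory neuron (45.0%), astrocyte (45.0%) and oligodendrocyte (40.0%) lists lie above the 11.8% of the class of their median length. Genes within a list differ in length, so this class is not a length match.

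The 4 contrasts between groups were then read as covered bases per region. Since presence in all lists is part of how the regions were chosen, and since 1 list stands for each group, these are descriptions with no test. For ACSS2 KD EtOH against ACSS2 KD Untreated, the median log2 ratio of covered bases was 0.17 (0.16 to 0.19, order-statistic interval over regions), while the covered bases of the whole lists differed by 0.26. At least 1.5-fold more was covered in 2660 regions (26.0%), and at least 1.5-fold less in 1139 (11.1%). Among all 40548 regions in all 4 lists these shares were 15.4% and 5.69%. These regions are narrower than the rest and were chosen on the same lists, so nothing is read from these shares, here or in the other 3 contrasts.

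The regions at the ends of this range show what such ratios are made of. The region with the highest ratio, inside Kalrn (chr16:34276971-34278371), had 1334 covered bp in ACSS2 KD EtOH, 136 in ACSS2 KD Untreated, 204 in Control EtOH and 661 in Control Untreated, a log2 ratio of 3.29. Next was Med27, a Mediator subunit gene, with 1097 and 147 bp in the 2 knockdown lists, at 2.90. The lowest were near Nln, a neurolysin gene, with 140 and 1172 bp (-3.07), and inside Ppp5c, a protein phosphatase gene, with 139 and 831 bp (-2.58). All 4 had no base covered in every list, so the ratio at each sets a wide peak beside a narrow one.

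For Control EtOH against Control Untreated, the median log2 ratio was -0.12 (-0.14 to -0.10), while the whole lists differed by -0.07. At least 1.5-fold more was covered in 1953 regions (19.1%) and at least 1.5-fold less in 2837 (27.7%), against 11.5% and 15.3% of all regions in all 4 lists. The ratio was highest inside Rhpn2, with 1286 bp in Control EtOH and 137 bp in Control Untreated (3.23), and inside Plekho2, with 1118 and 130 bp (3.10). It was lowest inside Pde9a, a cyclic GMP phosphodiesterase gene, with 136 and 1216 bp (-3.16), and inside Igf1r, the insulin-like growth factor receptor gene, with 136 and 1141 bp (-3.07). At Pde9a and Igf1r the knockdown lists covered 1015 to 1408 bp, so Control EtOH was the low list of the 4 there.

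For ACSS2 KD Untreated against Control Untreated, the median was 0.25 (0.23 to 0.26), the same to 2 decimals as the 0.25 of the whole lists. Coverage was at least 1.5-fold more in 3292 regions (32.2%) and less in 1273 (12.4%), against 19.0% and 7.06% of all regions in all 4 lists. The ends were Fars2, a mitochondrial phenylalanyl-tRNA synthetase gene, with 1094 bp in ACSS2 KD Untreated and 130 bp in Control Untreated (3.07), and Nup188, a nuclear pore gene, with 1170 and 141 bp (3.05), and on the low side the kinase gene Nuak1, with 136 and 930 bp (-2.77), and Zcchc24, with 190 and 1267 bp (-2.74).

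For ACSS2 KD EtOH against Control EtOH, the median was 0.56 (0.54 to 0.58), close to the 0.59 of the whole lists. Coverage was at least 1.5-fold more in 5001 regions (48.9%) and less in 696 (6.8%), against 29.4% and 3.66% of all regions in all 4 lists. The highest ratios were at Myo18b, an unconventional myosin gene, with 1577 bp in ACSS2 KD EtOH and 132 bp in Control EtOH (3.58), and near Ywhaq, a 14-3-3 protein gene, with 1804 and 152 bp (3.57). The lowest were inside the tyrosine kinase gene Abl1, with 140 and 896 bp (-2.68), and near Nln, with 140 and 788 bp (-2.49). The 4 contrasts share lists, and the direction of each median is that of the lists' own covered bases. With each list limited to as many top-scoring peaks as the shortest held, the medians were 0.17, -0.10, 0.24 and 0.53 in the order given here, against 0.17, -0.12, 0.25 and 0.56. This makes the number of peaks equal, and not depth or peak width, whose part in the medians was not tested.

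The limits of the rule split some nearly equal regions. The widest regions kept were 2486 bp, inside Klhl3, and 2484 bp, inside Arhgef10, and the narrowest left out for width were 2502 bp, inside Reep5, and 2506 bp, near Serp2. In distance, a region just inside was 5001 bp (inside Map3k12) from a gene end, and those just outside 4996 bp (inside Angptl2) and 4992 bp (near Depdc5). For H3K9ac, regions inside Lingo1 and Zmiz1 were kept with a gap of 1 and 3 bp to the nearest peak, and a region inside Anks1b and another near Pgm2 were left out for overlaps of 1 and 2 bp.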

How the data were processed

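ChIP-seq of H3K27ac and H3K9ac gave 8 deposited peak lists, 1 per mark and group, whose 3 replicates name the same list per the labels; how replicates were combined, by pooling reads or otherwise, no source here states. Peaks were kept at a false discovery rate of 0.001, per the file names and the labels. Tools listed in the submitters' processing notes, with no role given, are MACS2, bedtools, STAR 2.5.2a and bcl2fastq, and the build is GRCm38 (mm10). The authors' deposited score per peak was taken to be a −log10 q-value from its range and steps, since the lists have no header; it was used only to rank peaks within a list. Depth is unknown. Peaks off the 19 autosomes, X and Y (80 to 196 per list) were left out before merging. Gene ends come from a gene table of the GRCm38.p6 assembly without strand (21887 protein-coding genes); a gene end peak overlaps 1.0 kb on either side of an end. Percentiles are of a region's highest peak within its list. Shares have 95% Wilson intervals. The steps were checked on simulated intervals. Python 3.11.15, numpy 2.4.6, pandas 2.3.3, scipy 1.17.1 and matplotlib 3.10.9 were used.

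The members, the 15 gene lists and the alternatives were chosen with earlier results of these data known. Named are the 10 regions with the highest lowest percentile, regions beside each limit, the 2 highest and 2 lowest ratios per contrast, the 10 genes holding and 5 nearest to most regions, the 10 densest windows of 100 kb and up to 4 genes per list. The top regions of some listed genes, chosen after their values were seen, illustrate their lists. The 6 alternatives changed the peak score minimum, list length, overlap, distance, H3K9ac margin and gene types. Chromosome 18 was not used for promoter windows, and sequences of whole regions are not shown here. A few items that the rule names are not reported here.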

Additional observations from a re-analysis of the deposited data

Results flagged for a closer look

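The median log2 ratio of covered bases, ethanol over untreated, was above 0 in the knockdown lists (0.17) and below 0 in the control lists (-0.12) over the 10237 regions. The covered bases of the whole lists had the same directions, at 0.26 and -0.07. More bases with ethanol were covered in 6402 regions in the knockdown, and fewer in 5735 in control mice. The difference was not tested, since 1 list stands for each group. The median over regions of the log2 ratio of ethanol over untreated in the knockdown minus that in control mice was 0.308. Over all 40548 regions in all 4 lists it was 0.156, and the covered bases of the whole lists gave 0.336. More bases with ethanol in the knockdown and fewer in control mice were found in 3627 regions (35.4%), and the reverse in 1696 (16.6%). These shares were not counted over all regions in all 4 lists, so nothing particular to the 10237 regions is read from them.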

How the results depend on the processing

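The spread between mice and unequal depth could not be assessed, because each group has 1 list. No paired analysis was possible because the lists carry no replicate values, and for the same reason no replicate could be left out. The count of 10237 regions was 6757 with a minimum peak score of 5 and 2592 when each list had to cover at least 50% of a region, and stayed between 8253 and 9927 under the other 4 alternatives. The share inside genes was 67.98% with 50% cover, 69.56% with no H3K9ac peak within 1.0 kb and 76.84% with genes of any type. The median distance to a gene end was 29630 bp with a minimum score of 5, 39460 bp beyond 10 kb and 33050 bp with the H3K9ac margin. The rise beyond 10 kb follows from the setting itself, which leaves out the nearer regions. No median log2 ratio changed direction under any of the 6 alternatives. With 50% cover the medians were 0.089 for ACSS2 KD EtOH against ACSS2 KD Untreated, -0.0372 for Control EtOH against Control Untreated, 0.108 for ACSS2 KD Untreated against Control Untreated and 0.236 for ACSS2 KD EtOH against Control EtOH. The rule of 50% cover itself limits how far 2 lists can differ. With lists of equal length, Control EtOH against Control Untreated was -0.10 and ACSS2 KD EtOH against Control EtOH 0.53, and with the H3K9ac margin ACSS2 KD EtOH against ACSS2 KD Untreated was 0.19. The cause of the other shifts was not tested. Of 60 recomputed counts of regions inside the 10 genes that hold most, 44 stayed within 1.5 times the count given and 16 moved, with a range of 5 to 50 over all settings. The overlap with the 10237 regions was 5355 (52.3% of them) with a minimum score of 5 and 8230 (80.4%) with lists of equal length. The 10 highest-ranked regions were all kept under the score, length and 50%-cover settings. They were chosen for high scores, so their place under the score and length settings was largely fixed in advance. Of these 10, 8 were kept beyond 10 kb, 6 with the H3K9ac margin and 5 with genes of any type.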

Other observations

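The median gap between neighbouring regions was 15.5 kb, and 4506 of 10217 gaps (44.1%) were under 10 kb. Gaps were not measured for other sets, so nothing particular to the regions is read from them. The densest 100-kb windows each fell in a single gene. Each also held many other H3K27ac regions: merged regions of any kind ran from 61 in the window of Ctif to 96 in that of Dscaml1. Dscaml1 led with 25 regions, followed by Gfod1 with 24, Zbtb16 and Ctif with 23, Sipa1l3 and Fam53b with 22, and Gse1, Ksr1 and Ttc7b with 21. Covered bases in the window of Dscaml1 summed to 18363 in ACSS2 KD EtOH, 18256 in ACSS2 KD Untreated, 11869 in Control EtOH and 14587 in Control Untreated. In the window of Ctif the sums were 14231, 13672, 16282 and 12055 bases in the same order, with Control EtOH the highest.

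Of 1005 miRNA hairpins, 10 overlapped a region, among them Mir5129 inside Zeb2, a zinc finger factor gene, in a region with a lowest percentile of 55.1, and Mir6366 outside protein-coding genes, in a region with 76.0. Overlaps were not counted for other sets, so whether 10 is many or few for such regions is not known.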
